A study of Mus musculus with 6 samples.

Results

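The collagen genes were examined in the quadriceps of AR97Q mice, a transgenic model of spinal and bulbar muscular atrophy kept on a C57BL/6J background. Members were every gene whose array probe matched a symbol of the form Col, number, a, number. They came to 44 genes on 70 probes, of 44931 genes and transcripts on 56605 probes. All mice were male, carried the transgene and were 9 weeks old at sampling. The Exercise group (n = 3) had run on a forced wheel from 5 weeks of age, 5 days a week for 4 weeks, at 5 m/min for 60 min a day, and the Sedentary group (n = 3) had not. No wild-type mice were on the arrays, so the comparison is between AR97Q mice with and without exercise. The promoter that drives the transgene is not given in the sources used here. Each mouse gave 1 array with 1 dye.

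Collagens are proteins of the extracellular matrix in which 3 alpha chains wind into a triple helix. Fibrillar collagens assemble into the fibres of the muscle's connective tissue, and the tension-bearing sheaths around fibres and bundles are built mostly from types I and III. Type IV collagens form the network of the basement membrane that wraps each muscle fibre and capillary. The remaining collagens are a mixed group that includes the beaded filaments of type VI, fibril-associated collagens, transmembrane collagens and the networks of type VIII. In muscle these genes are expressed mainly by fibroblasts, vessel cells and Schwann cells, and some by the fibres themselves. In bulk tissue, fewer cells of a type and less RNA per cell cannot be told apart.

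Values are log2 intensities minus the 75th percentile of the same array, so that 0 is that percentile. Except in the summed marker lists, they were set only between arrays for the same probe, since probes differ in brightness. A gene was tested when 3 or more of the 6 arrays read a probe of it well above background, and the brightest such probe stood for the gene. This left 41 collagens: all 11 fibrillar, all 6 basement membrane and 24 of 27 other collagens. Col6a4 was well above background on 1 array with its better probe, and Col9a3 and Col10a1 on none, so these 3 were not tested. A gene is described as called when its adjusted p in limma, over all 25005 genes and transcripts tested, was under 0.05.

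Both marker collagens were detected on every array. Col1a1, the main chain of type I collagen, read 6.38, 5.99 and 6.18 on the Exercise arrays and 7.09, 6.16 and 5.97 on the Sedentary arrays. The groups overlapped, and Sedentary 1 alone stood above the other 5 arrays. Its log2 fold change, Exercise over Sedentary, was -0.23 (SE 0.30, limma adjusted p = 0.619), and 0.12 without Sedentary 1. The 2 other probes of Col1a1 gave differences of -0.30 and -0.31. Col4a1, an obligate chain of the common type IV network, read 4.03, 4.08 and 4.03 with exercise and 3.96, 3.53 and 4.02 without. The Exercise arrays lay above the Sedentary arrays by a narrow margin, and the log2 fold change of 0.21 (SE 0.15, limma adjusted p = 0.343) did not pass the test.

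Of the 41 tested collagens, none was called higher in Exercise, where 11.5% of all genes tested were, and 4 were called lower, where 6.12% of all genes tested were. All 4 called genes belonged to the other collagens: Col8a1, Col16a1, Col19a1 and Col28a1. Col28a1 passed the filter on dim probes only through the Sedentary arrays, so its call gives the count no support of its own. At an unadjusted limma p under 0.05 there were 9 collagens, 2 higher and 7 lower, where 21.6% of all genes tested were higher and 15.4% lower. The stricter threshold of the study, which adds a log2 fold change of at least 1 in size, was passed by Col8a1 and Col19a1, both lower, and by no collagen higher. Over all genes tested it was passed by 1.06% lower and 1.72% higher. The log2 fold change lay between -0.5 and 0.5 in 33 of the 41 collagens. Its median was 0.019 over all collagens and 0.026 over all genes tested.

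**Figure D1:**
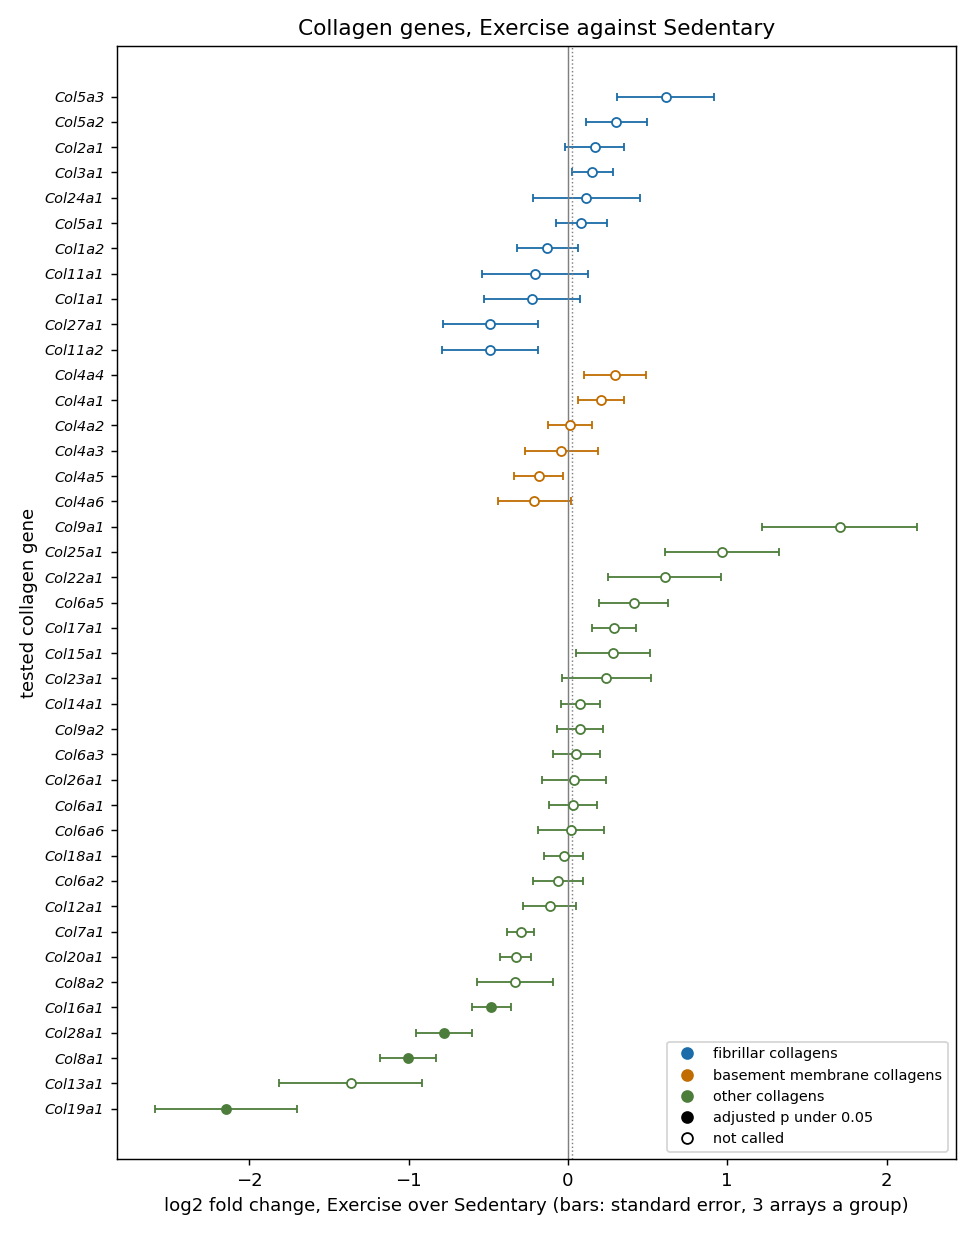
Each point is 1 tested collagen gene, placed by its log2 fold change (Exercise over Sedentary, 3 arrays a group) with the standard error of the limma fit, grouped and coloured by class, and the dotted line is the median of all genes tested. Filled points are the 4 called genes, all in the group of other collagens and all below 0. The fitted points of Col28a1, Col9a1, Col25a1 and Col6a6 rest in part on arrays not well above background. The fibrillar and basement membrane points run from -0.49 to 0.61 and none is filled.

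The Exercise arrays all exceeded the Sedentary arrays in 4 of the 41 collagens, where 25.0% of all genes tested did so. The 4 were Col4a1, Col9a1, Col17a1 and Col25a1. They were all lower than the Sedentary arrays in 7, where the share over all genes tested was 18.2%. These were Col7a1, Col8a1, Col13a1, Col16a1, Col19a1, Col20a1 and Col28a1. The shares over all genes show that separation of the groups was common on these arrays.

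The number of calls changed with the arrays used, for collagens as for all genes. Leaving out any of the arrays but Sedentary 1 left no collagen called by limma, and at most 1 gene among all 25005. Whichever array was left out, the log2 fold change was -1.18 to -0.88 for Col8a1 and -2.68 to -1.85 for Col19a1. It was -0.57 to -0.40 for Col16a1 and -0.93 to -0.60 for Col28a1. Without Sedentary 1, 4 collagens were called lower (Col8a1, Col13a1, Col19a1, Col28a1) and 2 higher (Col4a4, Col9a1), where 8.24% of all genes tested were called lower and 13.9% higher. For Col9a1 and Col28a1 this fit sets detected arrays against a group with no array well above background. The 3 Exercise arrays and Sedentary 1 sat on 1 strip of the slide, as the array positions in the file headers give it, and the other Sedentary arrays on the other strip. With the strip as a block, no collagen and 3 of all genes were called. The arrays' 75th percentiles were 251 to 257 in Exercise and 310 to 384 in Sedentary, and the scaling removes this gap. With no scaling between arrays, the median log2 fold change of all genes tested fell to -0.45. Of the collagens, 23 were then called lower and 1 higher, beside 45.1% and 2.47% of all genes tested. With scaling on the spike-in probes the median of all genes tested was -0.51, and 19 collagens were called lower and 1 higher. That fit called 11173 of all 25005 genes in either direction. Changes are given here relative to the array's percentile, and the cause of the gap was not tested. Normexp background correction in place of the scanner's own gave 6 called higher and 4 lower, beside 24.7% and 8.05% of all genes tested. Array weights gave 3 higher and 4 lower, beside 20.5% and 14.5%.

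Col8a1 encodes a short-chain collagen of type VIII, which forms hexagonal networks and is known from vessel walls. It read 2.58, 2.38 and 2.64 on the Exercise arrays and 3.19, 3.64 and 3.78 on the Sedentary arrays. The groups did not overlap, with the highest Exercise array below the lowest Sedentary array. The log2 fold change was -1.003 (SE 0.17, limma adjusted p = 0.0241), a level 2.00-fold lower with exercise. The value was -1.18 without Sedentary 1 (limma adjusted p = 0.00902) and -0.65 against Sedentary 1 alone, the 1 Sedentary array on the strip of the Exercise arrays. Its partner chain Col8a2 had a log2 fold change of -0.33, which did not pass the test.

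Col19a1 encodes a fibril-associated collagen found at basement membrane zones and made by muscle cells during differentiation. Its values were -3.39, -3.41 and -3.66 with exercise and -2.41, -0.75 and -0.85 without. The Exercise arrays were close together, and Sedentary 1 lay between them and the remaining Sedentary arrays. The log2 fold change was -2.15 (SE 0.44, limma adjusted p = 0.0301), a level 4.43-fold lower with exercise and the lowest value of any tested collagen. It was -2.68 without Sedentary 1 (limma adjusted p = 0.00763) and -1.07 against Sedentary 1 alone. The second probe of the gene was well above background on 2 Sedentary arrays and 0 of the 3 Exercise arrays, and gives no second measurement of the size. The study lists Col19a1 among the genes it picked from these same arrays, so its place here is not independent evidence.

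Col28a1 encodes a collagen with von Willebrand factor domains that is known from peripheral nerve, where it lies next to Schwann cells. Its probe was detected well above background on all 3 Sedentary arrays (-3.50, -4.16 and -3.91) and on 0 of the 3 Exercise arrays (-4.62, -4.73 and -4.56). The gene was called lower in Exercise (limma adjusted p = 0.0348, and 0.0272 without Sedentary 1). With the lowest signal well above background as each Exercise array's value, the level was 1.52-fold higher in Sedentary. This is not a lower bound, since brighter signals could miss detection. No exact fold can be given for Col28a1, and it was tested only because the Sedentary arrays detected it. With normexp background correction in place of the scanner's own, the Col28a1 value was 0.04 and its call was lost. The list of Schwann cell markers had 9 of 10 values below 0. Its summed intensity, in units of the array's 75th percentile, was 46.4 to 55.8 in Exercise and 52.9 to 70.1 in Sedentary, with overlap. The part of Schwann cells in the Col28a1 result was not tested.

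Col16a1 encodes a fibril-associated collagen made by fibroblasts and smooth muscle cells. It read 2.55, 2.25 and 2.33 with exercise and 3.01, 2.71 and 2.85 without, with no overlap. The log2 fold change was -0.48 (SE 0.12, limma adjusted p = 0.0468), close to the threshold. A dimmer probe for the same transcript, well above background on 4 arrays, went the other way, with a difference of 0.50 and overlapping groups. With the mean of both probes the value was 0.0087, and with the more variable probe 0.50, neither called. Without Sedentary 1 it was -0.40 and not called (limma adjusted p = 0.0794). The change therefore rests on the brighter probe.

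**Figure D2:**
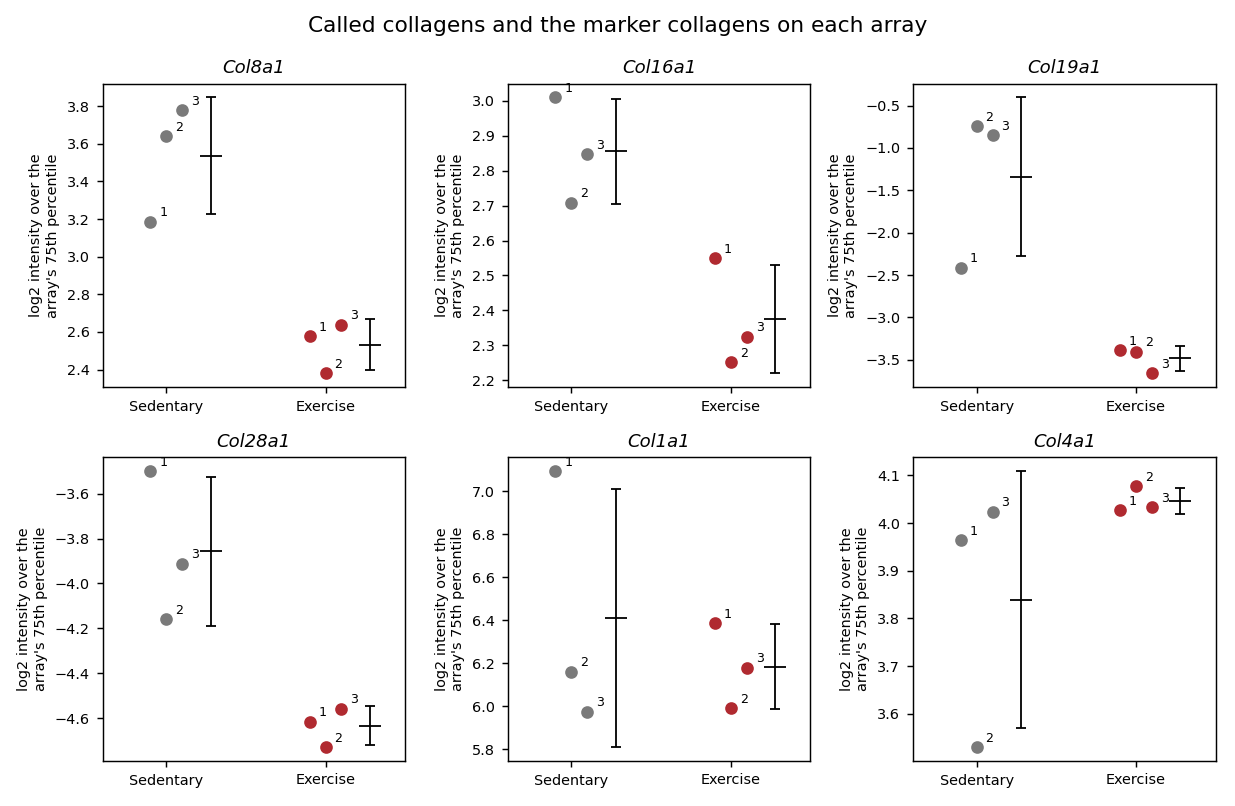
Log2 intensity over the array's 75th percentile for the 4 called collagens and the markers Col1a1 and Col4a1, with 1 numbered point per array and the group mean with its SD beside the points (n = 3). The vertical axes differ between genes and do not start at 0. The called genes separate the groups fully, while Col1a1 shows Sedentary 1 alone at 7.09.

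The promoter sequences of the called genes are shown because these are the only collagens that passed the test. RefSeq promoter entries (build GRCm38.p6) were matched for 35 of the 44 collagens. Printed are the 250 bases before the annotated start, 5′ to 3′ on the gene's strand, with each E-box (CANNTG, the site of myogenic and other basic helix-loop-helix factors) in capitals. Col8a1 lies at chr16:57754738-57754987 on the minus strand, Col16a1 at chr4:130047590-130047839 on the plus strand, Col19a1 at chr1:24587438-24587687 on the minus strand and Col28a1 at chr6:8192618-8192867 on the minus strand.
Col8a1: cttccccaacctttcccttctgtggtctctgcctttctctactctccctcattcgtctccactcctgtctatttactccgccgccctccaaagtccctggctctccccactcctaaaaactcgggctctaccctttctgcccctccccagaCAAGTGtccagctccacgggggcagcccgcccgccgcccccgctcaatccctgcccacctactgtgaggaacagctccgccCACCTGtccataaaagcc
Col16a1: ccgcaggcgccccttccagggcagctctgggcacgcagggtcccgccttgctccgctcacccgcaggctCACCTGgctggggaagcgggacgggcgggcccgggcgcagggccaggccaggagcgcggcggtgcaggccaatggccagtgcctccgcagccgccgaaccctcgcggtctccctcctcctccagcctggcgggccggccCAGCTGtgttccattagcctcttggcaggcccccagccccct
Col19a1: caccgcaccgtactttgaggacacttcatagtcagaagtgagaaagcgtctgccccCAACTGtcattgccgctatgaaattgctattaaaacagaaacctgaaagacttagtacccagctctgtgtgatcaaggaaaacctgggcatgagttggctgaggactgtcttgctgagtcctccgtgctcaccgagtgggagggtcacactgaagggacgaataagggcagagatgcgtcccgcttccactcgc
Col28a1: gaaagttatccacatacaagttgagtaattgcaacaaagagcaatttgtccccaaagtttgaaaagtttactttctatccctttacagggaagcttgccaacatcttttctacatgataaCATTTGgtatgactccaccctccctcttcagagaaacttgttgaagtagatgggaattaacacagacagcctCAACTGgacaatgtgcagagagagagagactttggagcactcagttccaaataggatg

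These windows held 2 E-boxes in Col8a1, 2 in Col16a1, 1 in Col19a1 and 2 in Col28a1. An E-box stands in 66.2% of all 32851 promoter windows of this length and in 19 of the 38 windows of collagens, so its presence is common. The GC box (GGGCGG on either strand) occurred 4 times in Col8a1, 1 time in Col16a1 and in neither of the other windows. At least 1 stood in 32.7% of all windows and in 22 of the 38 windows of collagens. The share of G and C was 75.6% in Col16a1, 60.8% in Col8a1, 52% in Col19a1 and 40.4% in Col28a1, where the median of all windows was 52.4%. The 4 windows thus differ widely in base composition. No window held the TATA box (TATAAA), which 12.4% of all windows hold, and the CCAAT box (CCAAT) stood only in that of Col16a1.

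No fibrillar collagen was called. The class had 6 positive and 5 negative log2 fold changes and a median of 0.085. Of the abundant interstitial collagens, Col1a2, the second chain of type I, had -0.13 and Col3a1, the single chain of type III found in reticular fibres, had 0.15. The type V chains, which nucleate type I fibrils and limit their width, were all above 0, with Col5a1 at 0.08, Col5a2 at 0.30 and Col5a3 at 0.61. The cartilage-type chains ran from Col2a1 at 0.17 through Col11a1 at -0.21 to Col11a2 at -0.49. The late-described fibrillar genes Col24a1 and Col27a1 had 0.12 and -0.49. None of these values passed the test.

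Col5a3 had the highest value of the class and read 4.25, 3.67 and 3.58 with exercise and 3.24, 2.68 and 3.73 without. Sedentary 3 lay among the Exercise arrays, and the log2 fold change of 0.61 (SE 0.31, limma adjusted p = 0.199) did not pass. A second probe of the gene gave a difference of 0.71 with no overlap. Col11a2 had the lowest value and read -1.73, -2.66 and -1.80 with exercise and -1.15, -1.78 and -1.78 without. Here Exercise 2 stood low and Sedentary 1 high, and the log2 fold change of -0.49 (SE 0.30, limma adjusted p = 0.284) did not pass.

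No basement membrane collagen was called either. The 6 type IV chains had log2 fold changes from -0.21 to 0.30 with a median of -0.015. These genes lie in head-to-head pairs, and in RefSeq the annotated starts of Col4a1 and Col4a2 are 21 bases apart on opposite strands and those of Col4a5 and Col4a6 1343 bases apart. Col4a1 and Col4a2, whose products form the network found in nearly every basement membrane, had 0.21 (SE 0.15) and 0.01 (SE 0.14). Col4a3 and Col4a4, chains of the specialised network of kidney and other epithelia, had -0.041 (SE 0.23) and 0.30 (SE 0.19). Col4a5 and Col4a6 had -0.18 (SE 0.16) and -0.21 (SE 0.23). No chain of a pair was called, and the difference within a pair was not tested.

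Col4a4 read -1.99, -2.04 and -2.05 with exercise and -1.89, -2.62 and -2.48 without. The Exercise arrays agreed closely, and Sedentary 1 lay above them while the other Sedentary arrays lay below. The log2 fold change was 0.30 (SE 0.19, limma adjusted p = 0.309) with all arrays and 0.52 (limma adjusted p = 0.0206) without Sedentary 1. Col4a6 read -2.71, -2.91 and -2.84 with exercise and -2.19, -2.55 and -3.10 without. Its groups overlapped, with a log2 fold change of -0.21 (SE 0.23, limma adjusted p = 0.535).

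Among the other collagens, the type VI chains form the beaded filaments that tie the basement membrane of muscle fibres to the interstitium. The values were 0.033 for Col6a1, -0.062 for Col6a2 and 0.052 for Col6a3, the chains of the common heterotrimer. The alternative chains Col6a5 and Col6a6 had 0.41 and 0.02. None was called. Col6a6 read -3.50, -3.93 and -4.27 on the Exercise arrays and was well above background on only 2 of them. The median standard error over the other collagens was 0.17.

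The fibril-associated collagens, which sit on the surface of fibrils, ranged most widely. Col12a1 had a log2 fold change of -0.12 and Col14a1 of 0.08, both genes of dense connective tissue and tendon. Col20a1 had -0.33 and an adjusted p just outside the threshold (limma adjusted p = 0.0639). Col22a1, known from the myotendinous junction, had 0.61 with overlapping groups. Col9a2 had 0.08.

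Col9a1, a cartilage collagen chain, had a fitted log2 fold change of 1.71 (SE 0.49, limma adjusted p = 0.0593) and was not called. It read -3.26, -3.92 and -3.21 with exercise and -4.35, -4.93 and -6.22 without. The groups did not overlap, but the probe was well above background on all 3 Exercise arrays and on 1 of the 3 Sedentary arrays, Sedentary 1. The size of the difference, and its rank among the collagens, are therefore not settled. The chondrocyte list beside it had Acan, Matn1, Matn3, Hapln1 and Snorc too dim to be tested, and 2 of 7 genes tested, neither called.

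The transmembrane collagens include genes of the neuromuscular junction. Col13a1, a muscle collagen needed for maturation of that synapse, read -2.40, -2.67 and -2.61 with exercise and -0.10, -1.76 and -1.73 without. All Exercise arrays were lower, while Sedentary 1 stood far above the rest. The log2 fold change was -1.36 (SE 0.45, limma adjusted p = 0.0828), which did not pass, and -0.82 without Sedentary 1, which did (limma adjusted p = 0.0136). A second probe was well above background on 2 arrays only and was not kept.

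Col25a1, a collagen of muscle needed for motor axons to enter it during development, read -3.80, -4.16 and -3.69 with exercise and -5.66, -4.30 and -4.60 without. Sedentary 1 did not detect it well above background. The Exercise arrays were higher, and the log2 fold change of 0.97 (SE 0.36, limma adjusted p = 0.106) did not pass. Col17a1, a hemidesmosome collagen of epithelia, had 0.29 and Col23a1 had 0.24, neither called.

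Of the rest, Col15a1 and Col18a1, whose products lie in or beside the basement membranes of muscle and vessels, had 0.29 and -0.027. Col7a1, the anchoring fibril collagen of skin, had -0.30 and an adjusted p just outside the threshold (limma adjusted p = 0.0612) with no overlap of the groups. Col26a1 had 0.040, and 1 of its dimmer probes gave 0.58 with no overlap. Of the 12 collagens with more than 1 kept probe, Col15a1, Col16a1 and Col26a1 had a kept probe whose sign differed from that of the probe used. For Col15a1 that probe gave -0.0071.

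The spread of the collagens differed between the groups. The median SD of a collagen was 0.31 over the Sedentary arrays and 0.17 over the Exercise arrays, where the medians over all genes tested were 0.15 and 0.14. Sedentary 1 was the highest of the 6 arrays in 21 of the 41 collagens, where 11.5% of all genes tested were highest there. It was the highest of the Sedentary arrays in 27 of 41, or 65.9%, against 39.1% of all genes tested. The split by class was 9 of 11 fibrillar, 5 of 6 basement membrane and 13 of 24 other collagens. These counts describe 1 library that was singled out after its values were seen, and no test is attached to them.

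**Figure D3:**
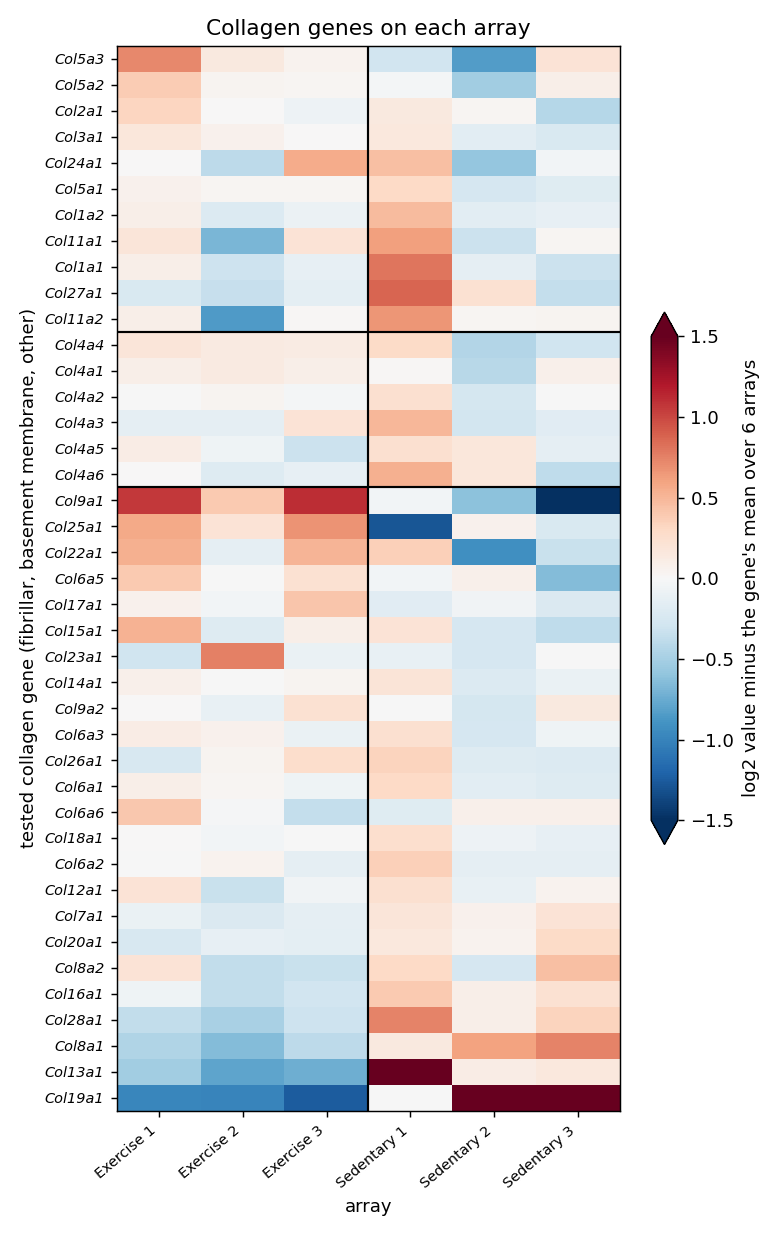
Each row is 1 tested collagen and each column 1 array, and the colour is the log2 value minus the gene's mean over the 6 arrays, limited at -1.5 and 1.5. Horizontal lines part the fibrillar, basement membrane and other collagens. Sedentary 1 is red in most fibrillar and basement membrane rows, and the lower rows show the collagens that were lower in Exercise.

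The size of that shift differed by class. Sedentary 1 exceeded the mean of the other Sedentary arrays by a median of 0.62 on the log2 scale in fibrillar, 0.51 in basement membrane and 0.25 in other collagens, and by 0.0063 over all genes tested. Without Sedentary 1 the median log2 fold change was 0.26 for fibrillar, 0.17 for basement membrane and 0.10 for other collagens. Against Sedentary 1 alone, within the strip that holds it and the Exercise arrays, the medians were -0.39, -0.29 and -0.27. The sign of the class medians thus turned on which Sedentary arrays were used. The position of Sedentary 1 could not be told apart from its strip, since no other Sedentary array shared it.

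**Figure D4:**
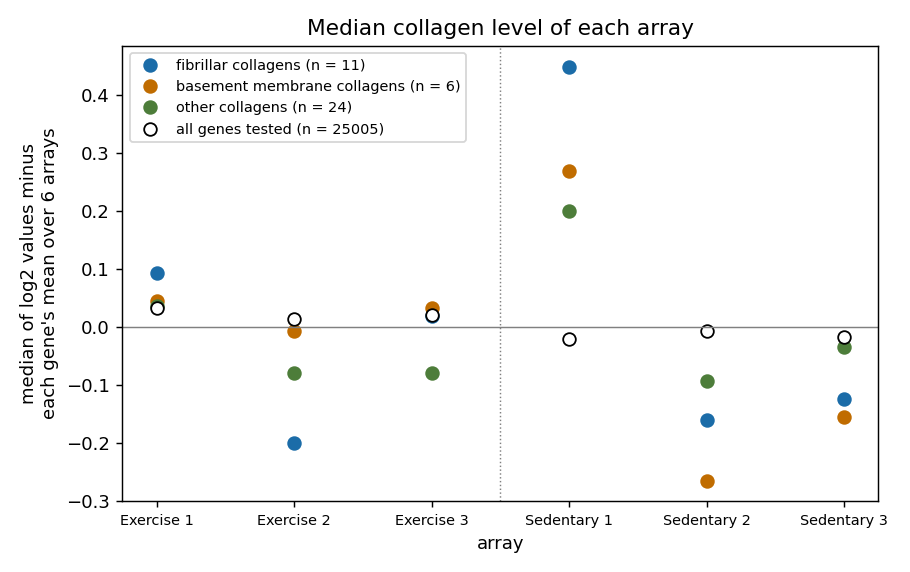
Median over the genes of a class of the log2 value minus each gene's mean over the 6 arrays, for each array, with the median of all genes tested as open circles. All 3 collagen classes are highest on Sedentary 1, the fibrillar class at 0.45, while all genes tested stay between -0.020 and 0.033.

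Related genes were counted in the same fit, in lists that share a few members (Sparc among them). Of 24 enzymes and carriers that fold and modify procollagen, 23 were tested and none was called, with 14 values above 0 and 9 below (median 0.023). Of 22 genes of procollagen processing and crosslinking, 20 were tested and 1 was called higher. This was Adamts14, a protease that removes the N-propeptide of procollagen, with a log2 fold change of 0.54 (SE 0.14, limma adjusted p = 0.0480). It read 0.80, 0.50 and 0.72 with exercise and 0.37, 0.08 and -0.047 without, and with no scaling between arrays it was 0.07 and not called.

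Of 13 collagen receptors, all were tested, 11 had values below 0 (median -0.20) and 1 was called, in the other direction. This was Gp6, the collagen receptor of platelets, with 0.76 (SE 0.12, limma adjusted p = 0.0234). The main integrin and discoidin domain receptors of collagen in the list were not called. Of 23 other basement membrane proteins, 21 were tested and Npnt alone was called, higher. Npnt encodes nephronectin, an integrin ligand of basement membranes, and read -2.28, -2.49 and -2.14 with exercise and -3.38, -4.16 and -3.54 without. Its log2 fold change was 1.39 (SE 0.22, limma adjusted p = 0.0234), and no laminin or nidogen of the list was called.

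All 20 genes of the transforming growth factor beta pathway, a main inducer of collagen genes, were tested, with 9 values above 0 and 11 below. Only Ltbp3, which binds the latent growth factor in the matrix, was called. Its log2 fold change was -0.44 (SE 0.12, limma adjusted p = 0.0497). The 5 lists together held 4 called genes, and the share of all genes tested that was called in either direction was 17.6%.

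Cell type markers were read beside these results as summed intensities in units of the array's 75th percentile. Such a sum gives most weight to bright probes, as Dcn among fibroblast, Thbs4 among tendon and Acta2 among smooth muscle markers. Muscle fibre markers came to 4516 to 5269 in Exercise and 2380 to 3343 in Sedentary, so the tissue showed its defining genes on every array. Of these 11 markers, 8 had values above 0 and 3 below. The 5 called were all higher (Acta1, Ckm, Myh4, Tnnt3 and Mylpf). Those below 0 were Tnnt1 at -1.16, Myh7 at -0.35 and Neb at -0.060, none called. Fibroblast markers came to 503 to 573 in Exercise and 467 to 540 in Sedentary, with 14 of 15 tested, none called and Tcf21 not tested. Among the Sedentary arrays this sum was highest on Sedentary 1. The same held for the endothelial, pericyte and smooth muscle, Schwann cell, macrophage, keratinocyte and muscle fibre sums. It did not hold for the tendon, adipocyte, satellite cell and chondrocyte sums.

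Tendon markers had values below 0 in 8 of 8 genes with 1 called (Chad, lower), and their sum was 67.8 to 85.7 in Exercise and 90.6 to 129 in Sedentary, with no overlap. Satellite cell markers were below 0 in 6 of 6 tested genes with Pax7 called lower, and their sum was 38.5 to 41.8 in Exercise and 47.6 to 49.9 in Sedentary, with Myf5 not tested. Endothelial markers (102.9 to 136 against 98.1 to 110) and macrophage markers (63.1 to 76.3 against 62.9 to 75.01) overlapped, with none of 10 called in either list. Adipocyte markers overlapped too, at 265 to 668 against 454 to 592, with 7 of 8 values below 0 and Lep alone called, higher.

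Pericyte and smooth muscle markers held 2 called genes of 10, Myh11 lower and Acta2 higher. The call of Acta2 rested on its brightest probe (1.32), and its other kept probes gave -0.89 and -0.80. The summed intensity, which includes that probe, was 390 to 450 in Exercise and 200.1 to 239 in Sedentary. Keratinocyte markers were tested in 3 of 7 genes, with Krt14, Krt1, Dsp and Dsg3 left out by the filter, and none was called. The part of these cell types in the collagen results was not tested.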

How the data were processed

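Total RNA of the quadriceps of 6 male AR97Q mice (3 Exercise, 3 Sedentary; 1 array each) was labelled with Cy3 by the authors, hybridized to Agilent mouse arrays and read with Feature Extraction 12.1.0.3 (per the file headers). For every spot the authors deposited intensities on a linear scale (a background-subtracted processed signal, a median signal and its local background) and flags. They also deposited a table of intensities, which for each array was the processed signal times 1 factor between 1.33 and 1.88. It was used as an alternative only.

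Control spots (3671 of 62976 per array) and flagged outliers were left out, spots of a probe were averaged as log2 of the intensity, and the 75th percentile of the probes of an array was taken off. The filter dropped 22 probes with missing values and retained the 32726 of 56605 that 3 or more arrays detected well above background. An array detected 54.6% to 59.9% of probes, with 0 saturated spots. Names came from matching transcript accessions without versions to a GRCm38.p6 table (34566 probes matched; 22039 kept the file's identifier), which gives 15745 named genes among 25005 tested. The brightest kept probe stood for a gene.

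The comparison of Exercise with Sedentary used limma 3.58.1 (R 4.3.3; lmFit, eBayes, two-sided, no covariates, Benjamini-Hochberg over all genes and transcripts tested). The threshold of the study adds a log2 fold change of at least 1 in size. The script was tested on simulated data. Precision is limited by the 3 arrays of a group. The collagens, their classes and the related lists were chosen with earlier results of these data known, so no list was given a p-value. The text gives all values for Col1a1, Col4a1, called collagens, Col19a1 and the extremes of each class, the log2 fold change of the other tested collagens, and the called members of related lists, apart from 1 item that is not reported here. Col7a1, Col13a1, Col20a1 and Col25a1 were given further values after these were seen.

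Alternatives were quantile, median, spike-in or no scaling, normexp (offset 50), other filters and probe choices, the deposited table, leaving out each array, the replicate number or strip of the slide as a block, array weights, and a trended robust fit. All arrays came from 1 slide and 1 scan.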

Additional observations from a re-analysis of the deposited data

How the results depend on the processing

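Over the 22 alternatives, 11 of the 41 tested collagens kept the sign of the log2 fold change in every alternative that tested them, among them Col8a1, Col13a1, Col19a1 and Col9a1. Col8a1 and Col19a1 stayed called in 14 of 22, with limma adjusted p from 0.00546 to 0.251 and from 0.00566 to 0.245. Col16a1 stayed called in 10 of 22 (limma adjusted p from 0.00875 to 0.982) and Col28a1 in 9 of 21 (from 0.00652 to 0.761). The number of collagens called lower was 2 with the array median subtracted, 23 with no scaling, 19 with spike-in scaling, and 0 with the replicate block, the strip as a block or Sedentary 1 alone within the strip. It ranged from 0 to 4 when 1 array was left out. The number called higher was 1 with the array median subtracted, no scaling, spike-in scaling, no filter on dim probes and the trended robust fit, 3 with array weights and 6 with normexp, and ranged from 0 to 2 when 1 array was left out. Calls over all genes in both directions moved too, from 4398 of 25005 to 3555 with the array median subtracted and 11173 with spike-in scaling. The cause of these shifts was not tested.

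The replicate block also left 0 calls among all genes. Same-numbered arrays shared only a number: the correlations of their deviations from the group means were 0.015, 0.085 and 0.036.

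The class medians moved with the scaling, for fibrillar, basement membrane and other collagens in that order, to -0.39, -0.49 and -0.45 with no scaling and to -0.46, -0.56 and -0.51 with spike-in scaling, where the median of all genes was -0.45 and -0.51. They were -0.39, -0.29 and -0.27 with the strip as a block and against Sedentary 1 alone. The median of other collagens was -0.12 with quantile normalization and -0.13 in the deposited table. When 1 array was left out the medians ranged from -0.15 to 0.26, from -0.13 to 0.17 and from -0.054 to 0.097.

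The related lists held 61 called genes with no scaling, 54 with spike-in scaling, 17 with normexp, 7 with no filter, 8 with detection on all arrays, 2 with the most variable probe, 11 in the deposited table, 18 with array weights, 15 with the trended robust fit and 0 with either block or within the strip, and from 0 to 11 when 1 array was left out. The marker lists held 11 called genes, against 60, 54 and 27 with no scaling, spike-in scaling and normexp, 17 with detection on all arrays and in the deposited table, 24 with array weights, 19 with the trended robust fit, 0 with either block or within the strip, and 0 to 15 when 1 array was left out.

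Signs of single collagens turned as follows, all of values that were not called in the main comparison except Col16a1 and Col28a1. No scaling turned Col14a1 (-0.39), Col15a1 (-0.19), Col17a1 (-0.18), Col23a1 (-0.23), Col24a1 (-0.36), Col26a1 (-0.43), Col2a1 (-0.30), Col3a1 (-0.32), Col4a1 (-0.27), Col4a2 (-0.46), Col4a4 (-0.18), Col5a1 (-0.39), Col5a2 (-0.17), Col6a1 (-0.44), Col6a3 (-0.42), Col6a5 (-0.060), Col6a6 (-0.45) and Col9a2 (-0.40). Spike-in scaling turned Col14a1 (-0.46), Col15a1 (-0.25), Col17a1 (-0.25), Col23a1 (-0.30), Col24a1 (-0.43), Col26a1 (-0.50), Col2a1 (-0.37), Col3a1 (-0.39), Col4a1 (-0.33), Col4a2 (-0.53), Col4a4 (-0.24), Col5a1 (-0.46), Col5a2 (-0.24), Col6a1 (-0.51), Col6a3 (-0.49), Col6a5 (-0.13), Col6a6 (-0.52) and Col9a2 (-0.46). The strip as a block, and Sedentary 1 alone within the strip, turned Col14a1 (-0.15), Col15a1 (-0.066), Col22a1 (-0.049), Col24a1 (-0.39), Col26a1 (-0.32), Col2a1 (-0.063), Col3a1 (-0.081), Col4a2 (-0.24), Col4a4 (-0.14), Col5a1 (-0.26), Col6a1 (-0.28) and Col6a3 (-0.21). The deposited table turned Col14a1 (-0.080), Col24a1 (-0.043), Col26a1 (-0.12), Col3a1 (-0.0042), Col4a2 (-0.15), Col5a1 (-0.073), Col6a1 (-0.12), Col6a3 (-0.11), Col6a6 (-0.14) and Col9a2 (-0.082). Normexp turned Col27a1 (0.0012), Col28a1 (0.040), Col4a2 (-0.070), Col4a3 (0.15), Col4a6 (0.069), Col6a1 (-0.043) and Col6a3 (-0.041). Quantile normalization turned Col3a1 (-0.10), Col4a2 (-0.12), Col4a3 (0.048), Col5a1 (-0.085), Col6a1 (-0.21) and Col6a3 (-0.13). Array weights turned Col11a1 (0.12), Col12a1 (0.032), Col18a1 (0.044), Col1a2 (0.048), Col4a3 (0.14) and Col6a2 (0.054), and subtraction of the array median Col18a1 (0.060), Col4a3 (0.047) and Col6a2 (0.026). Col16a1 was 0.0087 with the mean of its probes and 0.50 with the most variable probe. When 1 array was left out, the values that changed sign ranged as follows: Col11a1 -0.42 to 0.088, Col12a1 -0.25 to 0.023, Col14a1 -0.0056 to 0.19, Col18a1 -0.10 to 0.089, Col1a1 -0.44 to 0.12, Col1a2 -0.24 to 0.078, Col23a1 -0.078 to 0.45, Col24a1 -0.15 to 0.37, Col26a1 -0.083 to 0.22, Col2a1 -0.0027 to 0.28, Col4a2 -0.12 to 0.14, Col4a3 -0.19 to 0.20, Col5a1 -0.020 to 0.26, Col6a1 -0.053 to 0.19, Col6a2 -0.14 to 0.10, Col6a3 -0.060 to 0.18, Col6a6 -0.18 to 0.20 and Col9a2 -0.035 to 0.17. Precision is limited by 3 arrays per group, and Col28a1, Col9a1, Col25a1 and Col6a6 were near background.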
